A study of Drosophila melanogaster with 3 samples.

Results

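The genes described here are 8 homeodomain genes of the NK and Bar classes, namely tin, bap, lbl, lbe, C15 and slou on chromosome arm 3R and B-H2 and B-H1 on the X chromosome, out of 13945 protein-coding genes on the 6 arms. They were listed by gene name, with no threshold on a measured value, although earlier results of these data were known when the list was made. A peak was given to a gene when its summit lay inside the gene or when the gene's transcription start site (TSS) was the nearest protein-coding one and within 20 kb. The peaks came from chromatin immunoprecipitation with sequencing (ChIP-seq) of unpg (unplugged, itself a homeodomain protein) in whole Drosophila melanogaster embryos aged 4 to 16 hours. All samples came from a transgenic line that carries unpg with GFP at its C terminus, and they form 1 group of 3 biological replicates, numbered 3, 4 and 5. The labels do not say which promoter drives the tagged protein. No precipitation from embryos without the tag was analysed here, and no peak was set against such a background. A weak peak in whole embryos can stand for strong occupancy in few cells or weak occupancy in many, and these cannot be told apart.

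NK class homeodomain proteins are best known as mesoderm regulators, and in the fly several of their genes lie side by side in a cluster that is also found, in broken-up form, in other animals. Several of these genes, though not all, act as the mesoderm is divided into heart, gut muscle and body wall muscle. The Bar proteins belong to a related class and are known from the eye, external sensory organs and the leg. Homeodomains commonly bind short AT-rich words with an ATTA core, whereas NK2 class proteins and the closely related tinman, of the NK4 class, favour a word with an AAGTG core.

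Of the 8 genes, 5 had a summit in the list thresholded by the irreproducible discovery rate (IDR), which keeps peaks that rank alike between replicates. They were tin, lbl, lbe, C15 and B-H2, with 6 summits in all because B-H2 had 2. That is 62.5% of the 8 genes, against 29.1% of all protein-coding genes. The stretch of arm from which a gene can collect summits, called its catchment here, was longer for these genes (median 24103 bp) than for all genes (median 5253 bp). Among the genes whose catchment lay within the range of the 8 (5739 to 32334 bp), 37.8% had an IDR summit. This range starts at the catchment of tin, near the median of all genes, so it matches the 8 genes only loosely. No share limited in this way was taken for the pooled and replicate lists. With 8 genes and no control group, the difference in IDR shares was not tested, and it is given as a description. All 6 summits had a peak in every replicate list, and since the IDR list was derived from those lists this is no independent check.

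The sequences around these 6 summits, which rank highest at the genes in the pooled and IDR lists but not in every replicate list, are shown first. Each is the Release 6 reference (dm6 coordinates) on the plus strand of the arm, 5′ to 3′, 101 bases centred on the summit, except at lbe, where it was cut to the 63 bases that lie upstream of the start site. Capitals mark the words searched on both strands, which were the core ATTA, the longer word TAATTA, its variant CAATTA and the NK2 class word TNAAGTG. A word on the minus strand is printed as its reverse complement, such as TAAT for the core. The windows are chr3R:21378700-21378800 (tin), chr3R:21420081-21420181 (lbl), chr3R:21446538-21446600 (lbe), chr3R:21493690-21493790 (C15), chrX:17330405-17330505 and chrX:17334219-17334319 (B-H2, nearer and farther).
tin: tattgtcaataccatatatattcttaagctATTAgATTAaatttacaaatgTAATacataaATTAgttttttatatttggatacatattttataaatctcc
lbl: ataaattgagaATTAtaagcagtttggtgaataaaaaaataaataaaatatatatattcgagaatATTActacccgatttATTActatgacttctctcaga
lbe: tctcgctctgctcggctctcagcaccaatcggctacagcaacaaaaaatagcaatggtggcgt
C15: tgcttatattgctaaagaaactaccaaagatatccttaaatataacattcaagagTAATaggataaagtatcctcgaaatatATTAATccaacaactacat
B-H2, nearer: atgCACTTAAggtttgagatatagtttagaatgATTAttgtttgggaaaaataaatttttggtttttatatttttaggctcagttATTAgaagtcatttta
B-H2, farther: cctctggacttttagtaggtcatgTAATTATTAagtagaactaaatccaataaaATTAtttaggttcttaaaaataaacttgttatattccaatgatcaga

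The ATTA core occurred in 5 of these 6 windows, all but the one at lbe, against 80.2% of all 7176 IDR windows of 101 bases. The longer word TAATTA, which contains ATTA, occurred in 1 window (the farther one of B-H2), against 11.4% of all windows. CAATTA occurred in 0 of 6, against 11.2%. The NK2 class word TNAAGTG occurred in 1 window (the nearer one of B-H2), against 7.05% of all windows. The repeat GAGAGAG and the word TATCGATA, both known from promoter-bound factors, occurred in 0 of 6 windows, against 1.02% and 0.92% of all windows. The windows at the genes were AT-rich, with a median GC content of 24.8%, against 29.7% over all IDR windows. The tin window had 17.8% GC, and the lbe window stood apart with 50.5% GC over its full 101 bases. The words were therefore read beside base composition, and their shares at the genes are counts of few windows.

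**Figure D1:**
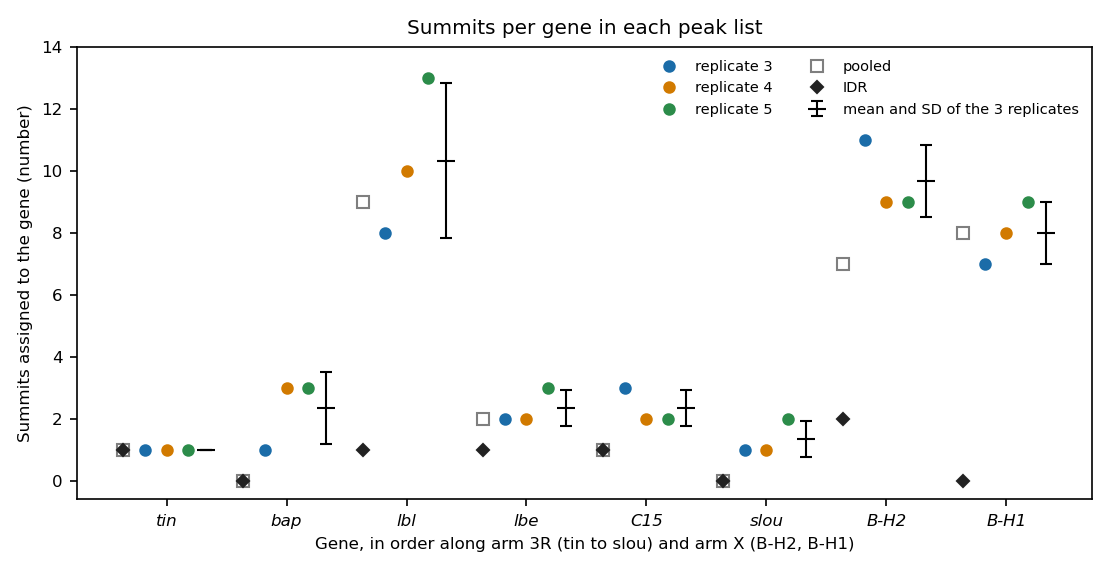
Number of summits assigned to each of the 8 genes (x axis) in the IDR, pooled and 3 replicate lists (y axis, number of summits). lbl, B-H2 and B-H1 carry 7 to 13 summits in each replicate list, while tin carries 1 in every list.

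Across the whole lists the genes fell into crowded and sparse ones, as the plot of summits per gene shows. The pooled list, called on all 3 replicates together, had summits at 6 of the 8 genes, against 47.4% of all genes. Its 28 summits at the genes lay at lbl (9), B-H1 (8), B-H2 (7), lbe (2), tin (1) and C15 (1), with none at bap and slou. All 8 genes had a summit in the lists of replicates 3, 4 and 5, against 53.3%, 53.5% and 54.1% of all genes, and all 8 had one in every replicate, against 42.7% of all genes. The 3 lists gave 34, 36 and 42 summits to the genes (37.3 ± 4.16, SD, n = 3). Each replicate list held 30000 peaks, many with little support, so the 7176 strongest peaks of each were also counted. Among these the genes had 5, 5 and 9 summits in replicates 3, 4 and 5 (6.33 ± 2.31, SD, n = 3). Only tin, lbl, C15 and B-H2 had one in all 3 replicates, 4 of 8 genes against 23.4% of all genes.

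Replicate peaks that shared at least 1 bp were joined into regions, which gave 52 regions at the 8 genes. Of these, 19 had a peak in all 3 replicates, 10 in 2 and 23 in 1. Peaks were joined in chains, so 2 peaks of 1 region need not share a base. In the lbl region 7087 bp downstream of the start site, for example, the peaks of replicates 3 and 4 shared none. Of the 28 pooled peaks at the genes, 17 (60.7%) were overlapped by a peak of all 3 replicates, against 59.8% of all pooled peaks, so the share at the genes was near the background. Among the 28, 10 reached the highest -log10 q-value of the list (4.37), against 38.8% of all pooled peaks, and the lowest was 0.362. Of the 28 pooled summits at the genes, 18 lay between genes, 4 in promoters (within 500 bp of a start site) and 4 in introns. Over all pooled summits 22.0% lay between genes, 24.2% in promoters and 47.2% in introns. These shares were not adjusted for the longer catchments of the 8 genes (median 24103 bp, against 5253 bp for all genes). The pooled windows at the genes held ATTA in 25 of 28 cases (89.3%), against 69.2% of all pooled windows, and had a median GC content of 35.1%, against 36.6%.

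**Figure D2:**
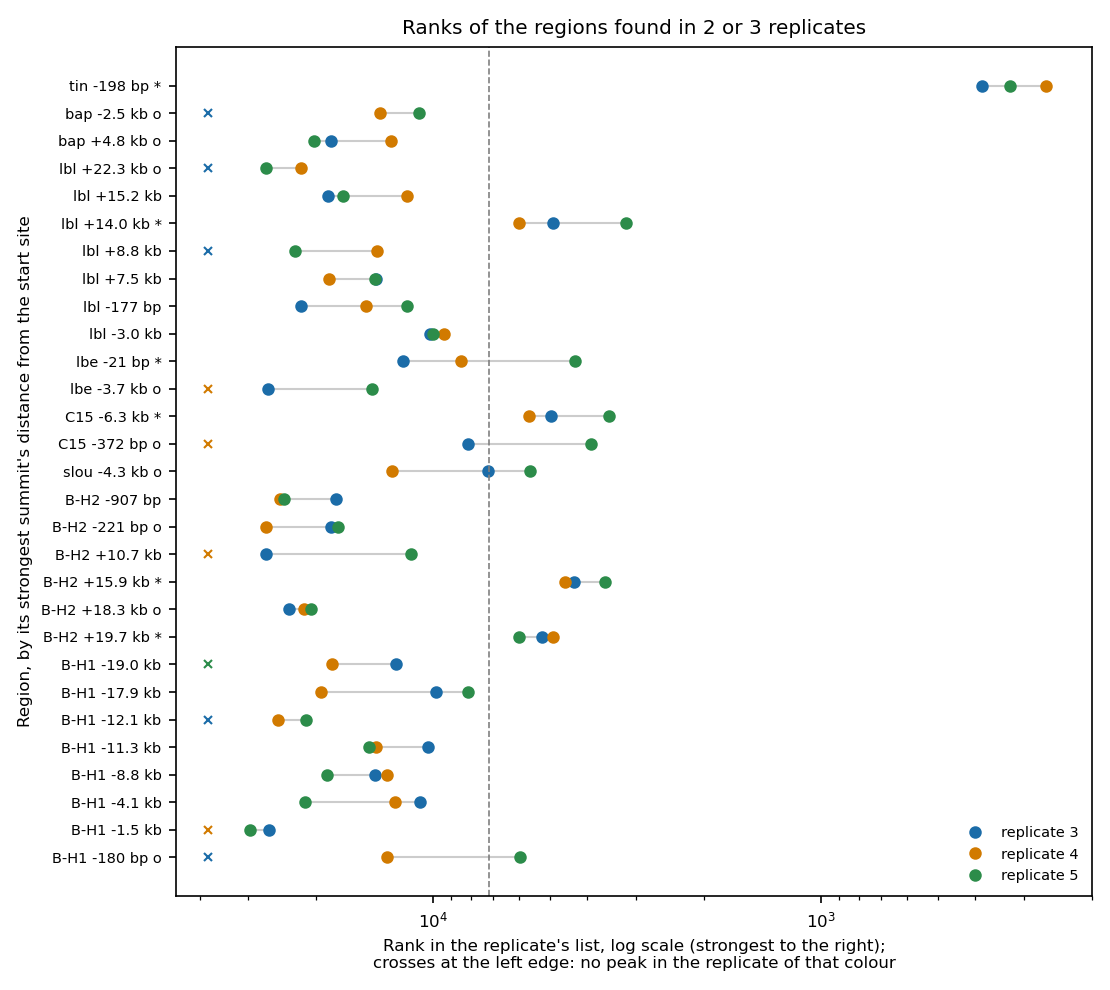
Rank of each region's strongest peak in replicates 3, 4 and 5 (x axis, log scale, strongest to the right) for the regions found in 2 or 3 replicates. Rows give the gene and the distance of the strongest summit from its start site, an asterisk marks regions in the IDR list, an o marks regions that overlap no pooled peak, crosses mark a replicate without a peak and the dashed line is rank 7176. The tin promoter stands alone at ranks 263 to 384.

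The strongest call at these genes was at tin (tinman, FBgn0004110, chr3R:21378977-21381970, plus strand), the NK4 class gene required for the heart and dorsal mesoderm. Its peak at chr3R:21378580-21378935 had its summit 227 bp upstream of the start site, in the promoter, and ranked 315 in the IDR list, where rank 1 has the highest deposited signal score. In the replicate lists it ranked 384, 263 and 325 of 30000, with summits 234, 198 and 213 bp upstream. Every replicate thus placed it near the top of its list, and no other summit was assigned to tin in any of the 5 lists.

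bap (bagpipe, FBgn0004862, chr3R:21388880-21390449, plus strand), the NK3 class gene required for gut muscle, had no IDR or pooled summit. It had 1, 3 and 3 summits in replicates 3, 4 and 5. The only region in every replicate lay about 5 kb downstream of its start site, with best ranks of 18306, 12853 and 20259. The replicate 4 peak at rank 12853 shared no base with the replicate 3 peak. The replicate 4 peak that did share bases with it ranked 29014. A region upstream of bap ranked 13715 in replicate 4 and 10902 in replicate 5 and was absent from the list of replicate 3. None of its peaks was among the 7176 strongest of a replicate, so the calls at bap were weak as well as few.

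lbl (ladybird late, FBgn0008651, chr3R:21409979-21434133, minus strand) and lbe (ladybird early, FBgn0011278, chr3R:21441577-21446537, minus strand) are neighbouring genes that specify subsets of heart and muscle precursors. lbl carried 8, 10 and 13 replicate summits and lbe 2, 2 and 3. The IDR peak of lbl, chr3R:21420024-21420205, lay in an intron 14002 bp downstream of the start site and ranked 4298 in the IDR list. It ranked 4898, 5996 and 3191 in replicates 3, 4 and 5, so it was within the strongest 7176 of each. By distance alone this summit was nearer to the start of CheB93b, a gene just beyond the 3′ end of lbl, and it counts for lbl because it lies inside it.

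Of the 15 lbl regions, 5 were found in every replicate. One of them lay about 3 kb upstream of the start site, between lbl and lbe, with ranks of 10174, 9366 and 9979. Its pooled peak, chr3R:21436974-21437123, was at the highest q-value and ranked 8298, which put it outside the IDR list. The start of lbl itself had a peak in each replicate at ranks 21893, 14938 and 11702, and its pooled peak ranked 13652. The intron peak was thus ranked higher than the promoter peak in every replicate.

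The IDR peak of lbe, chr3R:21446368-21446731, had its summit 13 bp upstream of the start site. It ranked 7054 of 7176, so it was close to the end of the IDR list. Its ranks in replicates 3, 4 and 5 were 11941, 8476 and 4298, so it was among the strongest 7176 in replicate 5 and outside them in the other 2. The remaining lbe regions were found in 1 or 2 replicates, and no region in its intron was shared.

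C15 (clawless, FBgn0004863, chr3R:21499986-21512814, plus strand) is the fly relative of the vertebrate Tlx genes and is needed for the tip of the leg. Its IDR peak, chr3R:21493598-21493777, lay 6246 bp upstream of the start site and ranked 4082. In replicates 3, 4 and 5 it ranked 4955, 5667 and 3519. The C15 promoter gave a different picture, with a rank of 8145 in replicate 3, no peak in replicate 4 and a rank of 3923 in replicate 5. No pooled peak overlapped it. The upstream peak was therefore present in every replicate and the promoter peak in 2 of 3. When noncoding genes also competed for the nearest start site, C15 kept no IDR or pooled summit and no longer had a summit in all 3 replicates.

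slou (slouch, also called S59, FBgn0002941, chr3R:21548661-21557182, minus strand) is the NK1 class gene that marks a subset of muscle founder cells. It had no IDR or pooled summit, but it had a region about 4.3 kb upstream of its start site in every replicate, with ranks of 7202, 12729 and 5634. When noncoding genes also competed for the nearest start site, slou no longer had a summit in all 3 replicates. At the 8 genes, 4 of the 19 regions with a peak in all 3 replicates overlapped no pooled peak, against 2.83% of the 16030 such regions of all arms. Among the 8296 regions that ranked 12729, the lowest rank of slou's region, or higher in every replicate, 1.81% overlapped no pooled peak. That criterion was set after slou's values were seen. The other 3 regions of this kind were the downstream one of bap and a pair at B-H2, and these were weak in every list. The first of the pair lay in the B-H2 promoter (ranks 18346, 26901 and 17597). The second lay farther downstream, between the 2 IDR peaks of B-H2 (ranks 23541, 21530 and 20635). In this second region the peaks of replicates 3 and 5 shared no base.

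**Figure D3:**
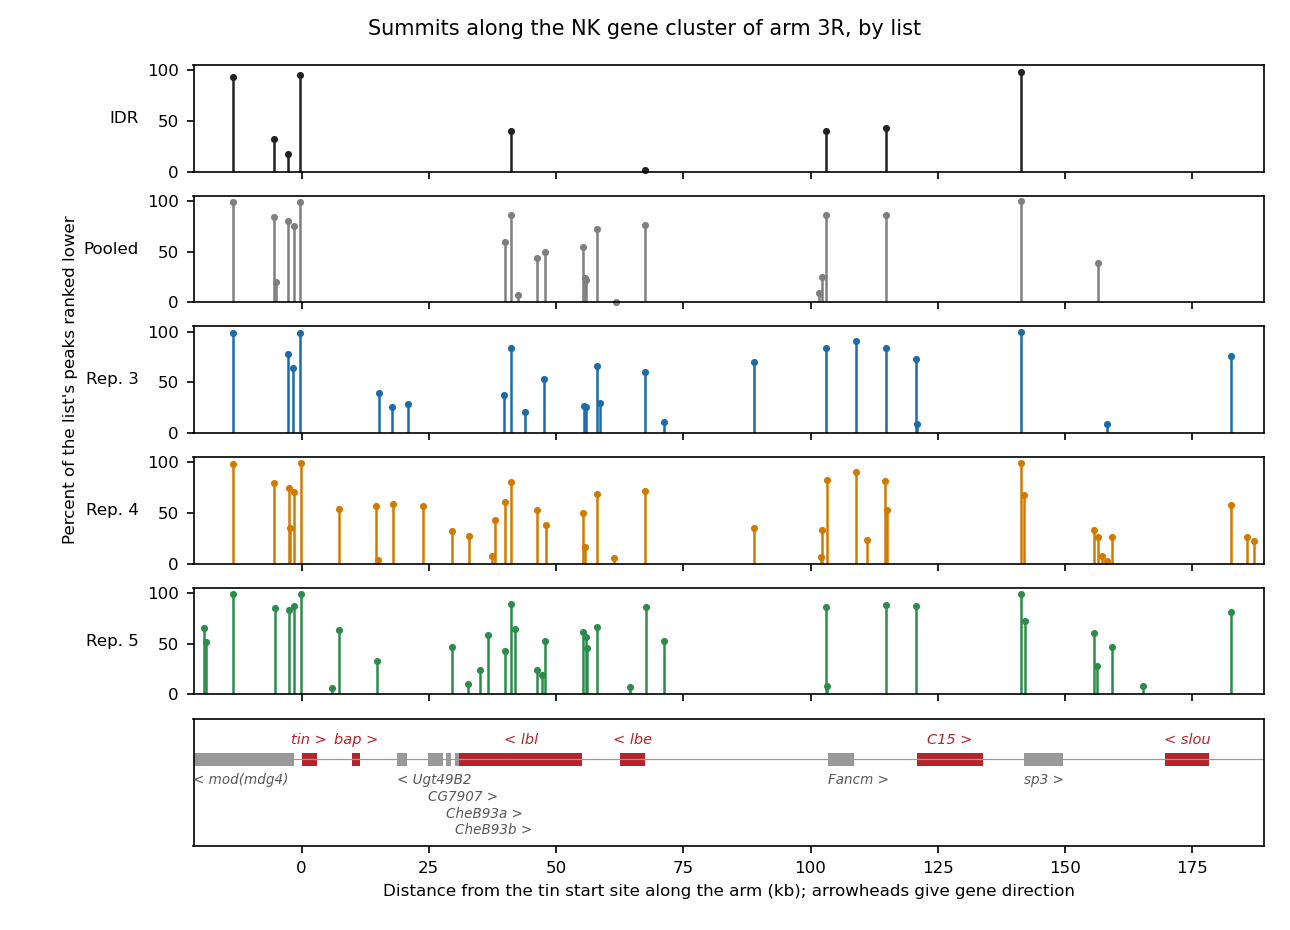
Summits along the NK cluster of arm 3R in the 5 lists (x axis, distance from the tin start site in kb). Bar height gives the percent of the list's peaks that ranked lower, and the lowest panel shows the genes, the 6 NK class genes in red and other protein-coding genes in grey. The summits at tin and just upstream of sp3 reach the top of every list, whereas the bar of lbe is near 0 in the IDR panel, and the stretch over bap has no IDR or pooled summit.

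Along 3R the genes ran in the order tin, bap, lbl, lbe, C15 and slou over 178 kb (chr3R:21378977-21557182). This span held 5 IDR summits, or 28.1 per Mb, against 51.2 per Mb of arm 3R. The pooled list had 17 summits in it (95.4 per Mb, against 206 per Mb of the arm). Replicates 3, 4 and 5 had 21, 33 and 30 summits (118, 185 and 168 per Mb), against 213, 210 and 210 per Mb of the arm. The cluster was below the arm in all 5 lists. Nothing is read from the wider spread of the replicates inside it, because its counts are small and each replicate list holds 30000 peaks. The tin summit lies just outside the span because it is upstream of the first gene.

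With 5 IDR summits in the span, their placement among gaps of unequal length is given as a description. The gap of 6.91 kb between tin and bap, that of 19.5 kb between bap and lbl and that of 7.44 kb between lbl and lbe held 0 each, and the pooled list had 5 summits in the lbl to lbe gap. The gap of 53.4 kb between lbe and C15 held 3, and that of 35.8 kb between C15 and slou held 1. Of the 5 in the span, 3 were those of lbl, lbe and C15, and the others were near 2 unrelated genes. The one at Fancm, which encodes a DNA helicase of the Fanconi anaemia pathway, lay 264 bp from its start site and ranked 4317 (4877, 5123 and 4069 in replicates 3, 4 and 5). The one nearest sp3 lay 579 bp from its start site and ranked 137 (91, 183 and 181 in the replicates), higher than any peak of the 8 genes. Ugt49B2, CG7907 and CheB93a, which lie between bap and lbl, had no IDR summit.

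B-H2 (FBgn0004854, chrX:17314581-17324175, plus strand) and B-H1 (FBgn0011758, chrX:17397478-17403278, plus strand) are the Bar genes, which act with overlapping roles in photoreceptors, sensory organs and leg segments. B-H2 had 11, 9 and 9 summits in replicates 3, 4 and 5 and 2 in the IDR list. The nearer IDR peak, chrX:17330335-17330496, lay 15874 bp downstream of the start site, beyond the end of the gene, and ranked 3936. It ranked 4322, 4571 and 3595 in the replicates. The farther one, chrX:17334190-17334368, lay 19688 bp downstream and ranked 4998, with replicate ranks of 5241, 4895 and 6012. Both were within the strongest 7176 of every replicate. The farther one is just inside the 20 kb limit, and the next pooled summit beyond the limit lay 21856 bp away with a pooled rank of 16661.

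B-H1 had no IDR summit although it had 7, 8 and 9 replicate summits and 8 pooled ones. Its strongest pooled peak lay 17857 bp upstream and ranked 9702, with replicate ranks of 9858, 19507 and 8127. The peaks 11250 bp and 4097 bp upstream ranked 10660 and 10157 in the pooled list. The second of these ranked 10813, 12523 and 21385 in replicates 3, 4 and 5. These 3 peaks had the highest q-value of the pooled list and still lay outside the IDR list. The B-H1 promoter had no peak in replicate 3, a rank of 13141 in replicate 4 and a rank of 5969 in replicate 5, and no pooled peak. The 2 Bar genes thus differed in the IDR list, while their replicate counts were close, at 9.67 ± 1.15 for B-H2 and 8.0 ± 1.0 for B-H1 (SD, n = 3 each).

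**Figure D4:**
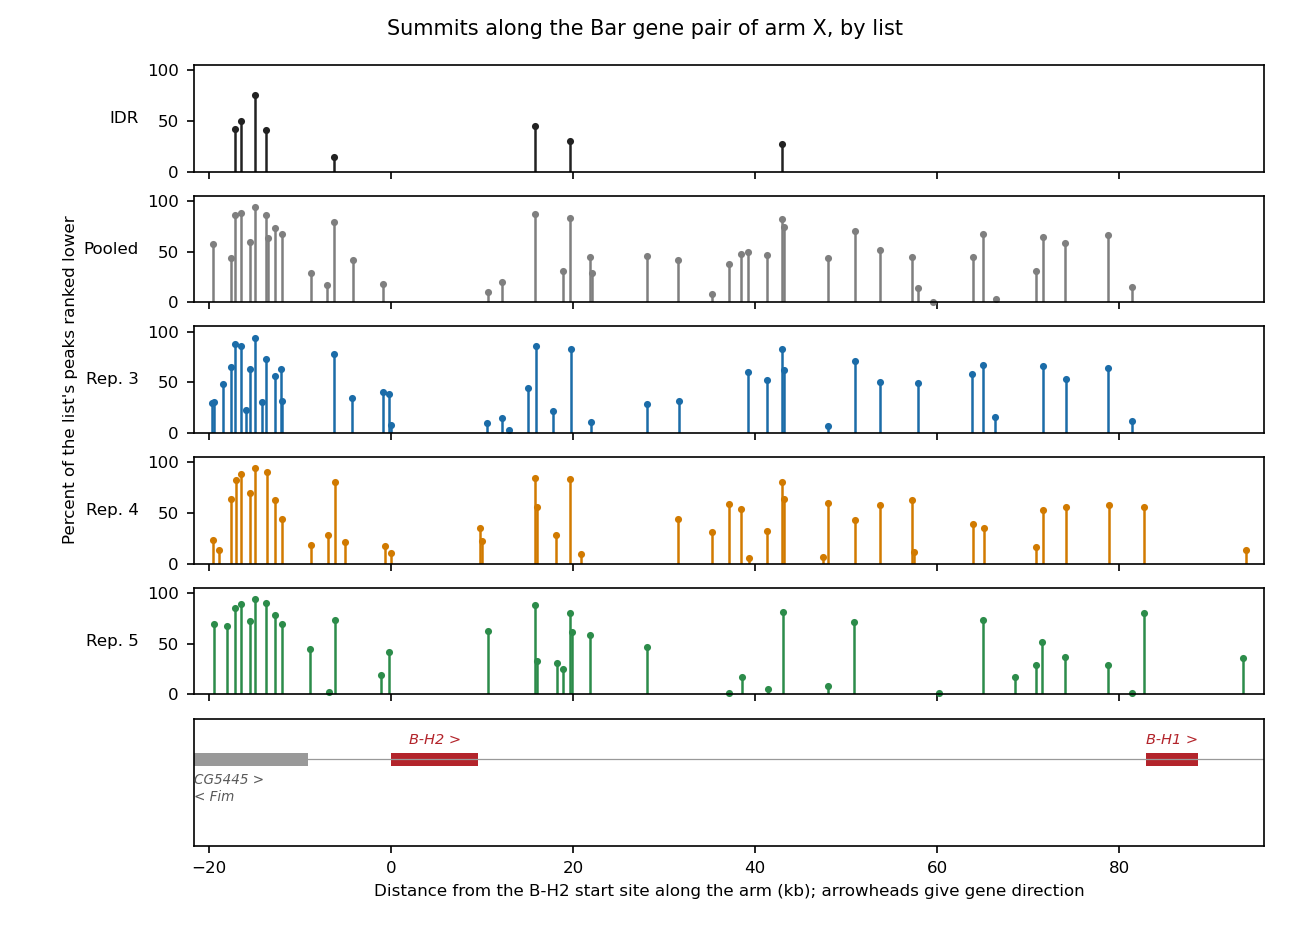
Summits along the Bar gene pair of the X chromosome in the 5 lists (x axis, distance from the B-H2 start site in kb). Bar height gives the percent of the list's peaks that ranked lower, with B-H2 and B-H1 in red and other protein-coding genes in grey in the lowest panel. Summits fill the 73.3 kb between the genes in the pooled and replicate lists, with 3 of them in the IDR list.

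The Bar pair differed from the 3R cluster in its density of summits. Its span of 88.7 kb (chrX:17314581-17403278) held 30 pooled summits, or 338 per Mb, against 238 per Mb of the X chromosome. Replicates 3, 4 and 5 had 25, 28 and 24 (282, 316 and 271 per Mb), against 230, 229 and 230 per Mb of the chromosome. In the IDR list it held 3, or 33.8 per Mb, against 57.6 per Mb of the chromosome. The span was thus above its chromosome in the pooled and replicate lists and below it in the IDR list. All of these summits lay in the gap of 73.3 kb between the genes. The middle 42.9 kb of the gap is more than 20 kb from either start site, so its summits belong to neither gene by the rule. It held 17 pooled summits and 11, 15 and 9 in the replicates. Its IDR peak, chrX:17357483-17357617, lay 42950 bp from the start of B-H2 and 39947 bp from that of B-H1 and ranked 5259, with replicate ranks of 5023, 5762 and 5630.

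Several promoter peaks ranked higher in replicate 5 than in the other replicates. This held at lbe, lbl, C15 and B-H1 and at the weak promoter peak of B-H2, whereas the tin promoter ranked highest in replicate 4. It was not particular to promoters. The upstream region of slou and the distal IDR peaks of lbl (3191) and C15 (3519) also ranked highest in replicate 5. Of the B-H2 IDR peaks, the nearer ranked highest in replicate 5 (3595) and the farther ranked lowest there (6012). The replicate 5 sequences are shown for 4 of the promoter and upstream regions that are not in the IDR list. These were picked because their composition differs from that of the distal IDR windows above. They are chr3R:21434260-21434360 (lbl), chr3R:21499564-21499664 (C15), chr3R:21561466-21561566 (slou) and chrX:17397248-17397348 (B-H1), in the same strand, build and lettering.
lbl, replicate 5: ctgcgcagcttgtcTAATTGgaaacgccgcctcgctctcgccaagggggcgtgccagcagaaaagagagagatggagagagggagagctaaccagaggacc
C15, replicate 5: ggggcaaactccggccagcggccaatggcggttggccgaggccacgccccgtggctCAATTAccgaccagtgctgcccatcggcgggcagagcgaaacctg
slou, replicate 5: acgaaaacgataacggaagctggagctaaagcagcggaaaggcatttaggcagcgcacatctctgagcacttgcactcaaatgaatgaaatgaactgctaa
B-H1, replicate 5: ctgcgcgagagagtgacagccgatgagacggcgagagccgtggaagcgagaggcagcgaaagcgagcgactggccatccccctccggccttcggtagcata

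These windows had 59.4% GC at lbl, 69.3% at C15, 45.5% at slou and 65.3% at B-H1. The distal IDR windows of lbl, C15 and B-H2 had 22.8% to 26.7%. CAATTA, or TAATTG on the other strand, occurred once in the lbl window and once in the C15 window, and the windows of slou and B-H1 held none of the words in capitals. The repeat GAGAGAG, which is not in capitals, occurred 2 times in the lbl window and 1 time in the B-H1 window, and 0 times in those of C15 and slou. Since the 4 windows were picked by composition, they do not stand for all upstream regions outside the IDR list. In replicate 5 the summit 2937 bp upstream of lbl had 24.8% GC. The summit 4074 bp upstream of B-H1 had 19.8%. The 3 replicate lists had the same median GC content at their summits (37.6%). Over the whole lists, the share of summits with 45% GC or more was 24.4% in replicate 5, 25.7% in replicate 4 and 25.9% in replicate 3. Among the strongest 7176 peaks the order was the other way, and the share with 45% GC or more was 12.3% in replicate 5, 11.6% in replicate 4 and 8.99% in replicate 3. The part of base composition in the replicate differences was not tested.

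Other lists of regulators, chosen by homeodomain class or by tissue, were counted by the same rule. Of 11 other NK-like class homeodomain genes, 7 (63.6%) had an IDR summit, led by NK7.1 with 10, ems with 6 and Dr with 4, and none at bsh and HGTX. Of 17 mesoderm and heart regulators, 10 (58.8%) had one, led by Mef2, a muscle differentiation factor, with 7, then zfh1 with 6 and tup with 5, and none at Doc3 and Hand. Of 10 sensory organ and eye regulators, 5 (50%) had one, led by ct with 4, with 1 each at ase and lz and none at ato and ey. Of the 8 Hox genes, 6 (75.0%) had one, led by Antp with 10, abd-A with 3 and Abd-B with 2, and none at Dfd and Scr. The 8 NK and Bar genes (62.5%) lay within the range of these lists. The median catchments of the 4 lists, from 20129 to 39052.5 bp, were likewise long beside the 5253 bp of all genes. The largest number of IDR summits at 1 of the 8 genes was the 2 of B-H2, against 10 at NK7.1.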

How the data were processed

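The files were 5 peak lists on dm6 without read counts, so the depth is unknown and no interval was given. Per the deposited file descriptions, 3 lists came from the single replicates, 1 from their pooled alignments, all against 1 shared control not analysed here, and the IDR list was derived from these 4. For the aligner, the peak caller, their versions and the IDR threshold nothing is given in the sources used here. Sonicated fragments measured 200 to 800 bp per the labels, whose descriptions name an anti-GFP antibody although another field gives unpg. The deposited signal score has no stated scale and served only to rank peaks within a list. The deposited -log10 q-value has a ceiling and was not used for ranking.

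Summits were assigned with genes of Ensembl release 115, and sequences came from the Release 6 genome, with Python 3.11.15, numpy 2.4.6, pandas 2.3.3 and matplotlib 3.10.9. A summit inside 1 gene and nearest the start of another counted for both. Assignment and word search were checked on simulated positions and sequences, and overlap was not checked in this way. The members and lists were chosen with earlier results of these data known. Named are all 8 genes, protein-coding genes inside a cluster, and, per other list, the 3 genes with most IDR summits (ties by symbol) and up to 2 with none. Also named are mod(mdg4) and CG5445, neighbours outside the clusters with IDR summits. The 3 replicates are 1 group, so no comparison between groups was tested. Alternatives changed the assignment, the peak set, the overlap, the window and the replicates used.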

Additional observations from a re-analysis of the deposited data

How the results depend on the processing

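The count of 5 genes with 6 IDR summits depended on distance. Counting summits inside the gene only left 1 gene with an IDR summit (1 summit), 1 gene with a pooled summit, 1 gene with a summit in all 3 replicates and 7.0 summits per replicate. A limit of 5 kb left 3 genes with 3 IDR summits and 21.7 summits per replicate. The stronger 3588 IDR peaks left 1 gene (tin) with 1 summit, and 1 summit in the 3R span. With the strongest 7176 peaks of each replicate, 4 genes had a summit in all 3 and the mean was 6.33 per replicate. When noncoding genes also competed for the nearest start site, the mean was 28.3, 4 genes had 5 IDR summits (C15 lost), 5 had a pooled summit (C15 lost) and 6 had a summit in all 3 replicates (C15 and slou lost). By nearest start site alone the mean was 33.0 and 4 genes had 5 IDR summits (lbl lost). Under a reciprocal overlap of 50%, 9 of the 28 pooled peaks were in all 3 replicates, against 17 at 1 bp. The share of all pooled peaks was not taken at 50%, nor the share of all genes under the other assignments. A narrow pooled peak can miss the 50% rule by its width. The nearer IDR peak of B-H2 (162 bp) then counted in 0 replicates, against 3 at 1 bp. With 100 bp on each side of the summit, TAATTA occurred in 2 of the 6 windows, CAATTA in 1, TNAAGTG in 2 and GAGAGAG in 1. Requiring IDR peaks among the strongest peaks of the replicates kept, leaving out each replicate in turn, left 4 genes, 5 summits and 4 summits in the 3R span each time, lbe being lost in all 3 cases. Without 1 replicate, the mean per replicate ranged from 35.0 to 39.0 and all 8 genes had a summit in the others. No paired analysis was possible because there is 1 group and no result comes from a test. Depth is unknown, so an unlisted peak is not shown to be absent.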
